A study of Rattus norvegicus with 36 samples.

Results

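Hbegf encodes heparin-binding EGF-like growth factor, a ligand of the EGF receptor, and Errfi1 encodes Mig-6 (also called gene 33 or RALT), an inhibitor of that receptor. These 2 genes, of 4736 with a symbol on the array, were chosen by their signals. By the brightest probe set of each gene, these were higher in polysomal RNA 6 h after contractions than in the polysomal control. The 2 genes were measured by 5 of 8740 probe sets, and all 5 passed the filter on low signals. Hbegf was read by L05489_at and rc_AI059540_at, and Errfi1 by rc_AI169756_s_at, X07266cds_s_at and M23572_at. These values come from the 6 h polysomal and polysomal control arrays. Every comparison that uses either of those groups is therefore described here without a test of the 2 genes. The other comparisons are tested with a spread estimated over all 6 groups, so these arrays still enter their SE and p.

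RNA of rat skeletal muscle (source label "ta", left as written) was hybridised to 36 single-colour arrays, with 2 arrays for each of 18 numbered samples. The muscle was collected 1 h or 6 h after resisted contractions, and the RNA was either total or polysomal, polysomal RNA being RNA bound to several ribosomes. The 6 h polysomal group held 4 numbers on 8 arrays, the 1 h polysomal group 2 numbers on 4 arrays, the 6 h total group 4 numbers on 8 arrays and the 1 h total group 2 numbers on 4 arrays. A polysomal control (4 numbers, 8 arrays) and a control titled as 1hr polysome (2 numbers, 4 arrays, the 1hr control) came from muscle whose labels name no contractions. Both controls are labelled 1 h, and the description of the second names no polysomes, so its fraction is not settled and none of the controls is total RNA in both title and description. Strain, age and sex, and whether the numbers are separate animals, are not given in the sources used here.

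EGF receptor ligands are made as membrane proteins that surface proteases release, and they drive the receptor to pair, phosphorylate itself and signal through Ras and MAP kinases to early response genes. Mig-6 binds the active kinase domain, blocks it and promotes uptake of the receptor, and its own gene is turned on by growth factor signals and by stress. Heparin-binding EGF-like growth factor is a known mitogen of smooth muscle cells and, in heart muscle, is linked to growth of the cells.

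The start regions of both genes are shown because the signals of both, by L05489_at and rc_AI169756_s_at, were higher after contractions. They are the 300 bases from 250 before to 50 after the RefSeq start site, from rat assembly GRCr8, 5′ to 3′ on the gene's strand, with motif matches in capitals. Hbegf lies at chr18:28380337-28390220 and its start region at chr18:28390171-28390470 on the minus strand. Errfi1 lies at chr5:166606841-166620124 and its start region at chr5:166606591-166606890 on the plus strand.
Hbegf: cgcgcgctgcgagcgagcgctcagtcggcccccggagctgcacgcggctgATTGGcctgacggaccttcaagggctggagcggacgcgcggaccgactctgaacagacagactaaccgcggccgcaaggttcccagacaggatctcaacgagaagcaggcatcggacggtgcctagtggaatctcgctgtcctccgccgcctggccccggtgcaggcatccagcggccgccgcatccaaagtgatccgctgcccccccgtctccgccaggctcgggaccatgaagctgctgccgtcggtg
Errfi1: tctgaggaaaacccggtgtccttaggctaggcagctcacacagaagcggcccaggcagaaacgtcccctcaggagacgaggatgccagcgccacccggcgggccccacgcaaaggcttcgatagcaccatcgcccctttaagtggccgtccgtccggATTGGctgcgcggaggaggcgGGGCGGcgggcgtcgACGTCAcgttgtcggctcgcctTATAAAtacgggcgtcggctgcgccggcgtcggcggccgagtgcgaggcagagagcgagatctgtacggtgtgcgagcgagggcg
The search covered both strands. Positions count from the RefSeq start site, and whether transcripts in this muscle start there was not tested. ATTGG (the reverse complement of the CCAAT box) was found in both regions, at -200 in Hbegf and at -93 in Errfi1, and occurs in 37.5% of 33469 rat start regions of this length. The Errfi1 region also held GGGCGG (GC box, 33.1% of regions) at -72, ACGTCA (the reverse complement of the cAMP response element core TGACGT, 7.94%) at -57 and TATAAA, the letters of a TATA box (14.2%), at -35. The letters TGANTCA (AP-1 site, 7.33%), GAANNTTC (heat shock element core, 8.59%) and the SRF site CArG (1.64%) were not in either window. No motifs overlapped in the printed regions. GC content was 68.7% for Hbegf and 67.3% for Errfi1.

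Signals are deposited intensities on a linear scale, and any value under a floor of 129.5, the 40th percentile, was raised to it before log2. Skeletal muscle markers had summed signals of 50326 to 349911 over 10 of 12 genes in the contracted groups and 63957 to 380819 in both controls. None of the 5 tested comparisons called one of them, against 0% to 0.403% of all probe sets. In bulk muscle RNA, fewer cells of a type and less RNA per cell cannot be told apart. The ratio of 3′ to 5′ beta-actin signal, a measure of RNA integrity and of priming, ran from 1.01 to 4.48 on 34 of 36 arrays. It was 9.01 and 11.5 on the 2 arrays of number 3 of the 6 h total group.

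Hbegf was highest 6 h after contractions in both fractions. In 6 h polysomal RNA L05489_at had a lowest signal of 1545, a median of 2096 and a highest of 2319 over 8 arrays. In 6 h total RNA the lowest was 39.99, the median 1409 and the highest 2638. The other arrays of the total group lay at 849 or above, while the array at 39.99 was the partner of one at 1370 for number 1. With 39.99 raised to the floor, theirs was the largest gap between the arrays of a number (3.40 log2, against a median gap of 0.38).

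At 1 h the Hbegf group means lay between those at 6 h and those of the controls. Polysomal RNA had 302 and 173 in number 1 and 828 and 938 in number 2. Total RNA had 590 and 292 in number 1 and 599 and 528 in number 2. The numbers of the polysomal group thus stood further apart than those of the total group, with an SD of 1.38 against 0.31 log2.

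The controls had the lowest Hbegf signals. The polysomal control had a lowest of 148, a median of 246 and a highest of 396, all above the floor. The 1hr control had 66.96 and 60.2 in number 1 and 106 and 211 in number 2, with 1 of 4 arrays above the floor. In log2 signal the groups stood in the order 6 h polysomal (10.98 ± 0.24), 6 h total (10.16 ± 1.09), 1 h total (8.92 ± 0.31), 1 h polysomal (8.81 ± 1.38), polysomal control (7.86 ± 0.34) and 1hr control (7.19 ± 0.25; SD over 4 or 2 numbers). Of neighbours in that order only the 2 controls had numbers that did not overlap.

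**Figure D1:**
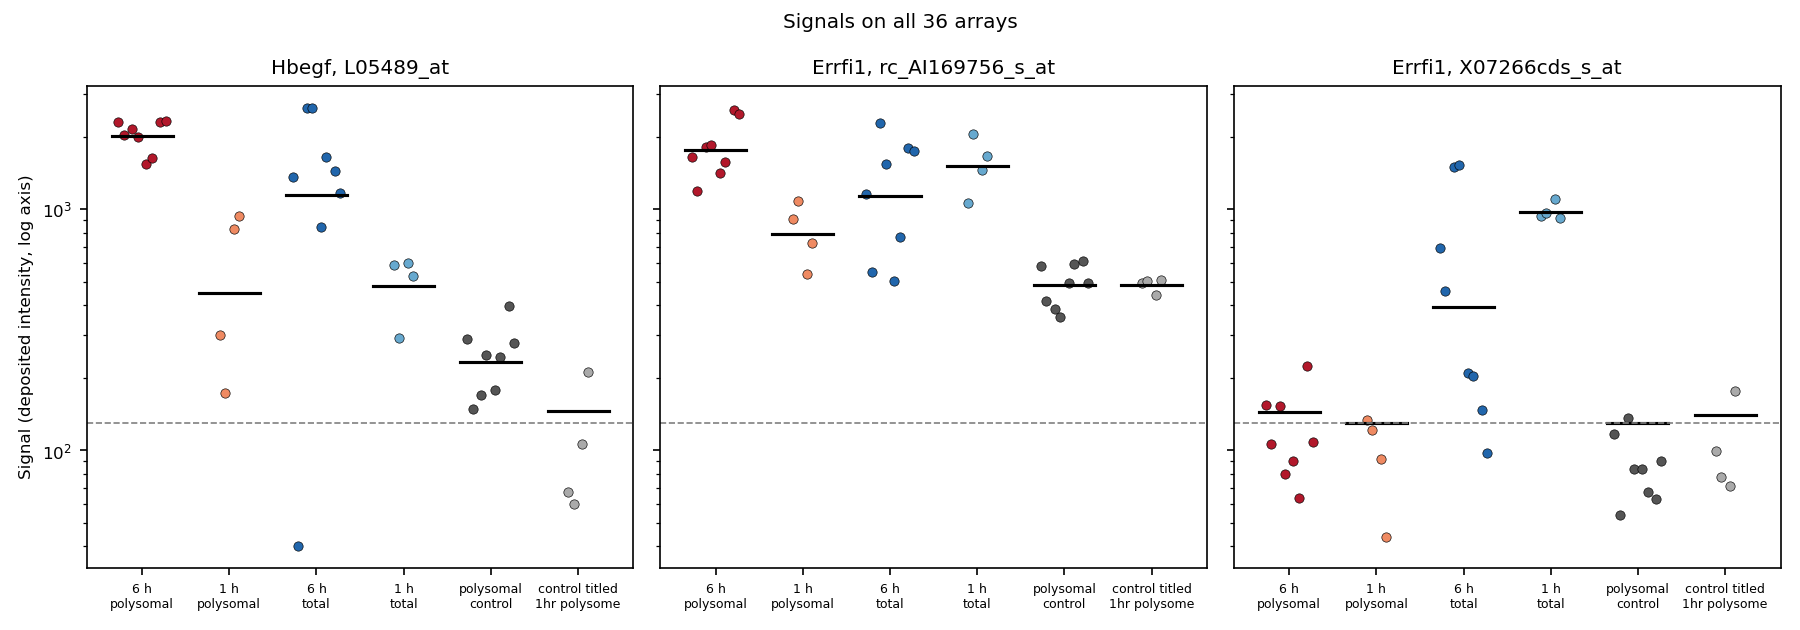
Signals of Hbegf (L05489_at) and of 2 Errfi1 probe sets on all 36 arrays, 1 point per array, on a log axis, with bars at the geometric mean over numbers after the floor and a dashed line at the floor of 129.5. Hbegf and rc_AI169756_s_at are high after contractions in both fractions, while X07266cds_s_at is high in 1 h total RNA and in numbers 1 and 2 of 6 h total RNA (460 to 1535) and at 223 or below on every other array.

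Errfi1 was high after contractions from 1 h on by rc_AI169756_s_at, which lay above the floor on all 36 arrays. In 6 h polysomal RNA the lowest signal was 1192, the median 1730 and the highest 2598, and in 6 h total RNA 503, 1349 and 2274. At 1 h polysomal RNA had 910 and 1081 in number 1 and 541 and 729 in number 2, against 1065 and 2048 in number 1 and 1452 and 1660 in number 2 of total RNA. The 1 h polysomal arrays lay below both total arrays of number 2 and overlapped those of number 1.

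Control signals of rc_AI169756_s_at lay close together. The polysomal control ran from 357 to 609 with a median of 496. The 1hr control had 493 and 505 in number 1 and 440 and 508 in number 2. The order of groups was 6 h polysomal (10.79 ± 0.39 log2), 1 h total (10.56 ± 0.05), 6 h total (10.14 ± 0.80), 1 h polysomal (9.62 ± 0.47), 1hr control (8.92 ± 0.06) and polysomal control (8.92 ± 0.26; SD over 4 or 2 numbers). Neighbouring contracted groups overlapped in that order, as did the 2 controls, whereas the 1 h polysomal numbers lay above those of the 1hr control.

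A second Errfi1 probe set, X07266cds_s_at, lay at or near the floor in polysomal RNA and was high in 1 h total RNA and in part of the 6 h total numbers. The 6 h polysomal arrays ran from 63.6 to 223, with a median of 108 (3 of 8 above the floor). At 6 h total RNA had 695 and 460 in number 1, 1500 and 1535 in number 2, 210 and 203 in number 3 and 148 and 97.8 in number 4. The 6 h total numbers thus ran from levels near the control to the highest of this probe set in the series, and the lowest of them overlapped the polysomal arrays.

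At 1 h the fractions of X07266cds_s_at did not overlap. Polysomal RNA had 133 and 122 in number 1 and 91.9 and 43.5 in number 2 (1 of 4 above the floor), against 937 and 964 in number 1 and 1100 and 919 in number 2 of total RNA. The polysomal control ran from 54.1 to 136 and the 1hr control from 71.4 to 177, with 1 array above the floor in each. The beta-actin 3′ to 5′ ratio was 2.54 to 4.48 and 2.003 to 4.28 in 6 h and 1 h polysomal RNA and 1.22 to 1.62 in 1 h total RNA. In 6 h total RNA it was 1.58 and 1.57 in number 1 and 1.43 and 1.01 in number 2. Number 3 of that group had 9.01 and 11.5, and number 4 had 1.25 and 1.09. The ratio was 1.07 to 2.73 in the 1hr control and 1.58 to 3.88 in the polysomal control. Its part in the X07266cds_s_at signals was not tested. Which part of the transcript each Errfi1 probe set reads is not given in the sources used here, and the difference between the probe sets was not tested.

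The 2 remaining probe sets lay at or below the floor on 23 and 24 of 36 arrays. Hbegf rc_AI059540_at ran from 152 to 513 in 6 h polysomal RNA, above the floor on all 8 arrays, and from 11.8 to 166 in the polysomal control, above it on 1 of 8. In the 6 h total group 3 of 8 arrays were above the floor, in the 1 h polysomal group 1 of 4, and in the 1 h total group and the 1hr control none of 4. Errfi1 M23572_at stayed at or below 345 and above the floor on 12 of 36 arrays, 4 of them in each of the 6 h total and polysomal control groups.

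The contrast behind the choice, 6 h polysomal against polysomal control, had a difference of 3.11 log2 (8.65-fold) for L05489_at and of 1.87 (3.65-fold) for rc_AI169756_s_at. For comparison, 23 of 6707 probe sets (0.343%) were called in that contrast and 1.18% had every array higher than every control array, as both of these did. The differences were 0.92 for rc_AI059540_at, 0.15 for X07266cds_s_at and -0.03 for M23572_at. L05489_at was 2.17 log2 higher in 6 h than in 1 h polysomal RNA and rc_AI169756_s_at 1.16 higher. Both had every 6 h polysomal array above every 1 h polysomal array, as had 0.79% of probe sets. The 6 h polysomal arrays entered the choice of the genes in both contrasts, so these shares are background and do not measure rarity.

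Between the controls the members were close for Errfi1 and less so for Hbegf. The polysomal control minus the 1hr control was -0.01 log2 for rc_AI169756_s_at and 0.67 for L05489_at. The polysomal control was part of the choice, so no test is given.

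By L05489_at, Hbegf rose in total RNA 6 h after contractions relative to the 1hr control, with a log2 change of 2.97 (SE 0.57, 7.82-fold, adjusted p = 0.0311, limma over 6 groups with Benjamini-Hochberg adjustment over 6707 probe sets). It ranked 23 by p. The spread behind this SE and p came partly from the groups that chose the gene. Those had SDs of 0.24 (6 h polysomal) and 0.34 log2 (polysomal control). The SD was 1.09 in 6 h total RNA and 0.25 in the 1hr control. With only the 2 compared groups in the fit the change was not called. The size depends on the floor, since 3 of the 4 control arrays lay under it, and the change was 3.36 with the floor at the 20th percentile (adjusted p = 0.0492, limma) and 3.03 on log2(value + 32) with no floor (adjusted p = 0.0407). The second Hbegf probe set, rc_AI059540_at, had a log2 change of 0.31 (SE 0.31, adjusted p = 0.688, limma), with all 4 control arrays at or below the floor, and did not pass. In this comparison 27 probe sets (0.403%) were called, 11 higher (0.164%) and 16 lower (0.239%). All 4 numbers lay above both control numbers, although the arrays overlapped through the one at 39.99. The fraction of this control is not settled, so contraction, time and fraction cannot be told apart here. Without the array at 39.99, an alternative chosen after seeing the data, the log2 change was 3.39 and the call held (adjusted p = 0.00241).

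This call depended on the control numbers. The adjusted p was 0.466 without number 1 of the 1hr control and 0.126 without number 2, and 0.0623 without number 2 of the 6 h total group, while the log2 change ran from 2.57 to 3.45 over the 16 alternatives that keep this control. Summed signals of macrophage and fibroblast markers were also higher in 6 h total RNA than in the 1hr control. The macrophage markers (9 of 15 genes tested) summed to 5082 to 9371 in 6 h total RNA against 4422 to 4919 in the 1hr control. The fibroblast markers (7 of 7 tested) summed to 40810 to 65851 in 6 h total RNA against 20523 to 38971 in that control. In the polysomal control the macrophage sums were 5686 to 9859 and the fibroblast sums 31219 to 81176, and both overlapped 6 h total RNA. The skeletal muscle, neutrophil, endothelial, smooth muscle and keratinocyte sums overlapped between 6 h total RNA and the 1hr control. The part of any cell type in the Hbegf result was not tested, and none of the marker genes was listed at 0.

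Errfi1 did not pass in the same comparison. The log2 change was 1.22 for rc_AI169756_s_at (SE 0.39, adjusted p = 0.172, limma), with arrays overlapping and numbers not, and 1.499 for X07266cds_s_at (SE 0.62, adjusted p = 0.30, limma), with numbers overlapping. With the 36 arrays in a random block by number, both were called (adjusted p = 0.0361 and 0.0498, limma). That fit assumes a common correlation between the arrays of a number for all probe sets. Its p can be too small where the arrays of a number lie closer together than that. The X07266cds_s_at change was 0.85 without number 2 of the 6 h total group and 2.005 without number 4. Without numbers 3 and 4, an alternative chosen after seeing the data, it was 2.73 and was called (adjusted p = 0.000265, limma).

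At 1 h in total RNA neither gene passed against the 1hr control, and the arrays of L05489_at, rc_AI169756_s_at and X07266cds_s_at did not overlap, all 1 h total arrays being higher. That was so for 6.23% of probe sets, whereas 5 (0.0745%) were called. The log2 change was 2.80 for X07266cds_s_at (SE 0.71, adjusted p = 0.18, limma), 1.72 for L05489_at (SE 0.66, adjusted p = 0.334) and 1.64 for rc_AI169756_s_at (SE 0.45, adjusted p = 0.21). Both Errfi1 probe sets were called with the random block (adjusted p = 0.00177 for X07266cds_s_at and 0.0205 for rc_AI169756_s_at, limma), under the limit given above for that fit.

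In polysomal RNA at 1 h no probe set of the array was called against the 1hr control (0% by limma, 299 at an unadjusted p below 0.05). L05489_at had a log2 change of 1.62 (SE 0.66, adjusted p = 1, limma), with 173 and 302 in its lower number against a highest control array of 211. That change was 2.59 without number 1 of the 1 h polysomal group and 0.64 without number 2. rc_AI169756_s_at had a change of 0.70 (SE 0.45, adjusted p = 1, limma), with every 1 h polysomal array above every control array, as for 2.42% of probe sets. X07266cds_s_at differed by -0.10 log2.

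**Figure D2:**
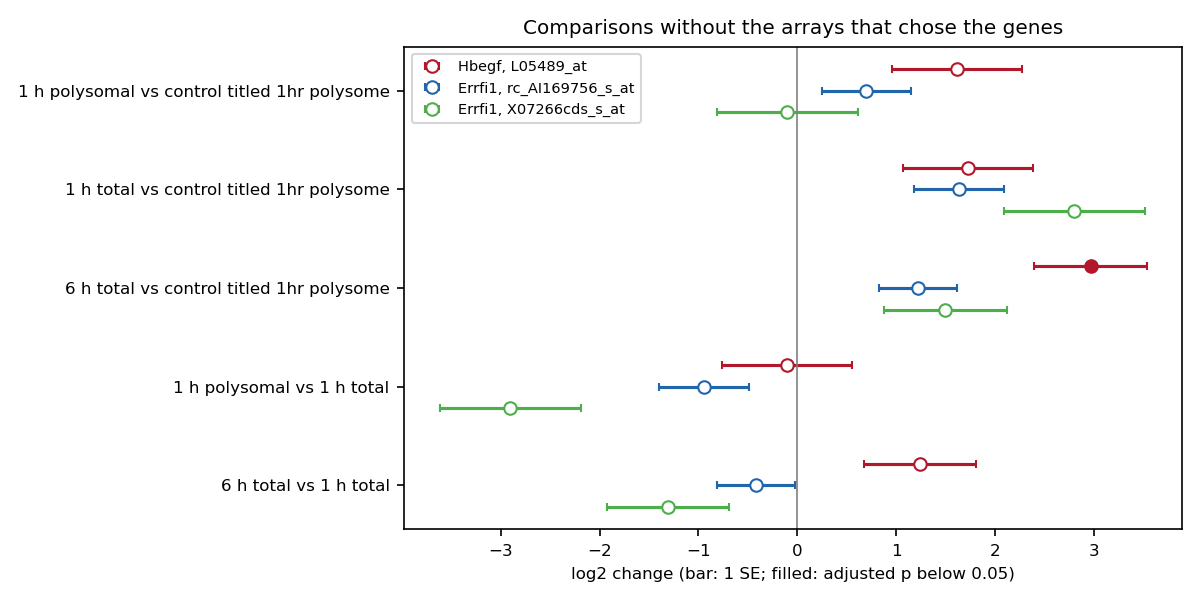
Log2 change with 1 SE for 3 probe sets in the 5 comparisons between groups that were not behind the choice of genes. Filled points have an adjusted p below 0.05. The SE and p come from 1 fit of all 6 groups, so the arrays behind the choice enter the estimate of spread. The Hbegf change in 6 h total RNA against the 1hr control (2.97) is the filled point.

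Polysomal and total RNA of contracted muscle were set against each other to ask whether transcripts on ribosomes differ from the total pool. At 1 h X07266cds_s_at had a log2 change of -2.91 in polysomal RNA (SE 0.71, 7.49-fold lower, adjusted p = 0.0858, limma), which did not pass. Every 1 h polysomal array of it lay below every 1 h total array, as for 13.2% of probe sets, and 26 probe sets (0.388%) were called. The floor limits this difference, because 3 of the 4 polysomal arrays lay under it. With the random block the difference was called (adjusted p = 0.00112, limma), under the limit given above for that fit. The difference was -2.85 in number 1 and -2.96 in number 2.

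The brightest probe sets showed smaller differences at 1 h. rc_AI169756_s_at had a log2 change of -0.94 (SE 0.45, adjusted p = 0.334, limma), -0.57 in number 1 and -1.31 in number 2. L05489_at had a change of -0.11 (SE 0.66, adjusted p = 0.993), -0.86 in number 1 and 0.65 in number 2, so its direction differed between the numbers.

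At 6 h, described without a test, L05489_at was 0.82 log2 higher in polysomal than in total RNA, but the arrays overlapped. By number the difference was 2.36, -0.34, 0.43 and 0.83, the first resting on the total array at 39.99. For rc_AI169756_s_at it was 0.64 log2, with 0.81, -0.03, 1.26 and 0.52 by number. X07266cds_s_at had a difference of -1.45 log2, with -1.998, -3.43, -0.67 and 0.30 by number. In this contrast 588 probe sets (8.77%) were called.

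Between 6 h and 1 h total RNA neither gene passed, and 4 probe sets (0.0596%) were called on the array. The log2 change was 1.24 for L05489_at (SE 0.57, adjusted p = 0.641, limma), -0.42 for rc_AI169756_s_at (SE 0.39, adjusted p = 0.783) and -1.31 for X07266cds_s_at (SE 0.62, adjusted p = 0.644). The numbers of all 3 overlapped between the times. The X07266cds_s_at change was -1.95 without number 2 of the 6 h total group, -0.80 without number 4 and, chosen after seeing the data, -0.08 without numbers 3 and 4.

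Other ErbB ligands had no change that passed in any of the 5 tested comparisons (0 of 3 tested besides Hbegf, of 11 listed). Over all probe sets 0% to 0.403% were called in these comparisons. A list this short, like each of those below, would therefore most often hold no call. Areg and Tgfa, further EGF receptor ligands, lay above the floor on 1 of 36 arrays each. Nrg1 and Nrg2, neuregulins that bind ErbB3 and ErbB4, had medians of 306 and 341 in 6 h total RNA against 281 and 285 in the 1hr control. Their log2 changes in that comparison were 0.28 and 0.29, with adjusted p of 0.729 and 0.637 (limma).

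The receptors that bind Hbegf were dim. Egfr, the receptor of Hbegf and target of Mig-6, had medians of 121 in 6 h total RNA and 129 in the 1hr control, and 13 of 36 arrays above the floor. Erbb4, also a receptor of Hbegf, was at or below the floor on all 36 arrays. Erbb2, the coreceptor without a ligand, and Erbb3, which binds neuregulins, had log2 changes of 0.57 and 0.71 (adjusted p = 0.617 and 0.383, limma) in 6 h total RNA against that control. Erbb2 lay above the floor on 18 of 36 arrays. Erbb3 (U29339_at) did so on 34, with medians of 321 in 6 h total RNA and 229 in the 1hr control. None of the 3 tested receptors passed in any tested comparison, against 0% to 0.403% of all probe sets.

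Proteases and surface partners that release or bind the ligand did not pass either (0 of 11 tested in each comparison, against 0% to 0.403% of all probe sets). Their median log2 change in 6 h total RNA against the 1hr control was 0.12, against 0.08 over all genes. Cd44, a surface glycoprotein that can hold the ligand, had 1.12 (adjusted p = 0.219, limma), and Adam17, the main sheddase of EGF receptor ligands, 0.46 (adjusted p = 0.439). In 1 h polysomal against 1 h total RNA, Timp3, an inhibitor of Adam17, had -1.19 (adjusted p = 0.101, limma) and Adam17 itself -0.99 (adjusted p = 0.11).

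Of the inhibitors of the receptor or its signal 14 were tested. None passed in any of the 5 comparisons, against 0% to 0.403% of all probe sets. In 6 h total RNA against the 1hr control, Sh3kbp1, an adaptor that takes part in Cbl-mediated uptake of the receptor, had -1.33 (adjusted p = 0.0603, limma). Dusp5, a phosphatase of ERK, had 1.11 (adjusted p = 0.14). Sh3kbp1 also had -1.15 (adjusted p = 0.233) in 1 h total RNA and -1.27 (adjusted p = 0.646) in 1 h polysomal RNA against the same control.

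Signal transducers had 0 of 17 tested genes past the threshold in each comparison, against 0% to 0.403% of all probe sets. Their median log2 change was 0.11 in 6 h total RNA against the 1hr control. Map2k1, the kinase of ERK, had 0.75 there (adjusted p = 0.301, limma) and Plcg1, a phospholipase bound by the receptor, 0.65 (adjusted p = 0.369). Akt2, a kinase downstream of PI 3-kinase, had -2.21 in 1 h polysomal against 1 h total RNA (adjusted p = 0.158, limma).

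Early targets of growth factor signalling had the largest medians of the 6 pathway lists against the 1hr control. None of the 16 tested passed, against 0% to 0.403% of all probe sets. The median log2 change was 1.14 in 6 h total RNA against 0.08 over all genes, 0.67 in 1 h total RNA against 0.01, and 0.42 in 1 h polysomal RNA against -0.02. Above 0 were 13, 14 and 14 of the 16. The list was chosen with earlier results of these data known, so these values are description only. The part of EGF receptor signalling in them was not tested. In 6 h total RNA Plaur, the urokinase receptor, had 2.36 (adjusted p = 0.0659, limma) and Atf3, a stress-induced transcription factor, 3.45 (adjusted p = 0.0683). In 1 h total RNA Egr1 and Fos, transcription factors of the immediate early response, had 3.88 and 3.43 (adjusted p = 0.144 and 0.147).

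**Figure D3:**
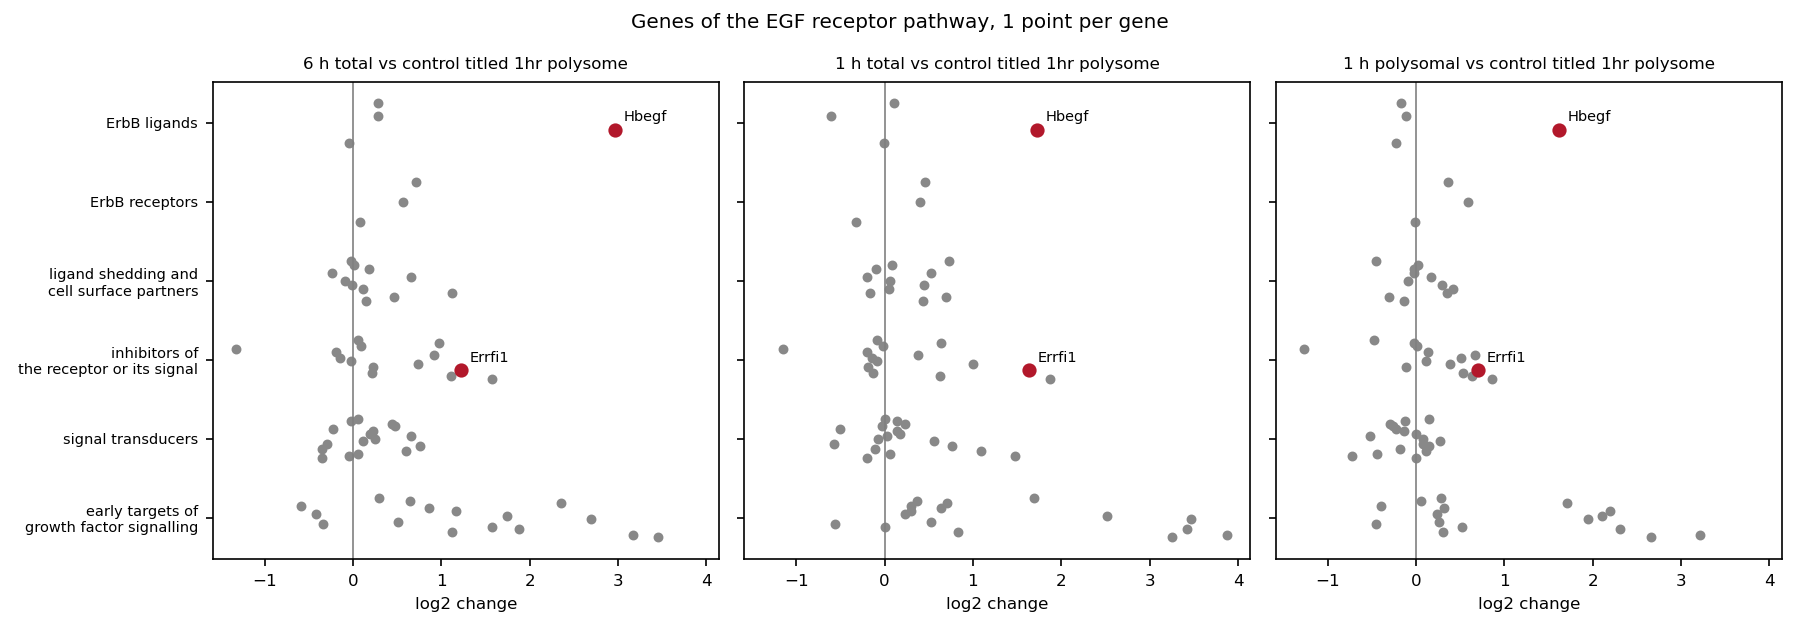
Log2 change of each tested gene of 6 EGF receptor pathway lists in 3 comparisons against the 1hr control, 1 point per gene, with Hbegf and Errfi1 in red. Hbegf is the highest of the 4 ligands in each panel, and Errfi1 lies to the right of 0 in each.

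The genes most like Hbegf over the 18 replicates, of 3902 others, were Pvr (Pearson r = 0.928), Ankrd1 (0.925), Plin2 (0.920), P2rx5 (0.904) and Csrp3 (0.903). Pvr is an adhesion receptor, Ankrd1 a titin-binding protein, Plin2 a coat protein of lipid droplets, P2rx5 an ATP-gated channel and Csrp3 a muscle LIM protein. Most like Errfi1 were Hspa1a (0.923), Atf3 (0.905), Fos (0.881), Egr1 (0.841) and Klhl41 (0.840). Hspa1a is the inducible heat shock protein 70 and Klhl41 a kelch protein of the sarcomere.

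Hbegf and Errfi1 correlated at 0.790 with each other. Errfi1 ranked 25 for Hbegf and Hbegf 10 for Errfi1. The 18 replicates include the 6 h polysomal and polysomal control numbers that chose both genes, so part of this likeness follows from the choice. The replicates fall into 6 groups and share arrays and scaling among all genes, so these values describe likeness and carry no p.

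**Figure D4:**
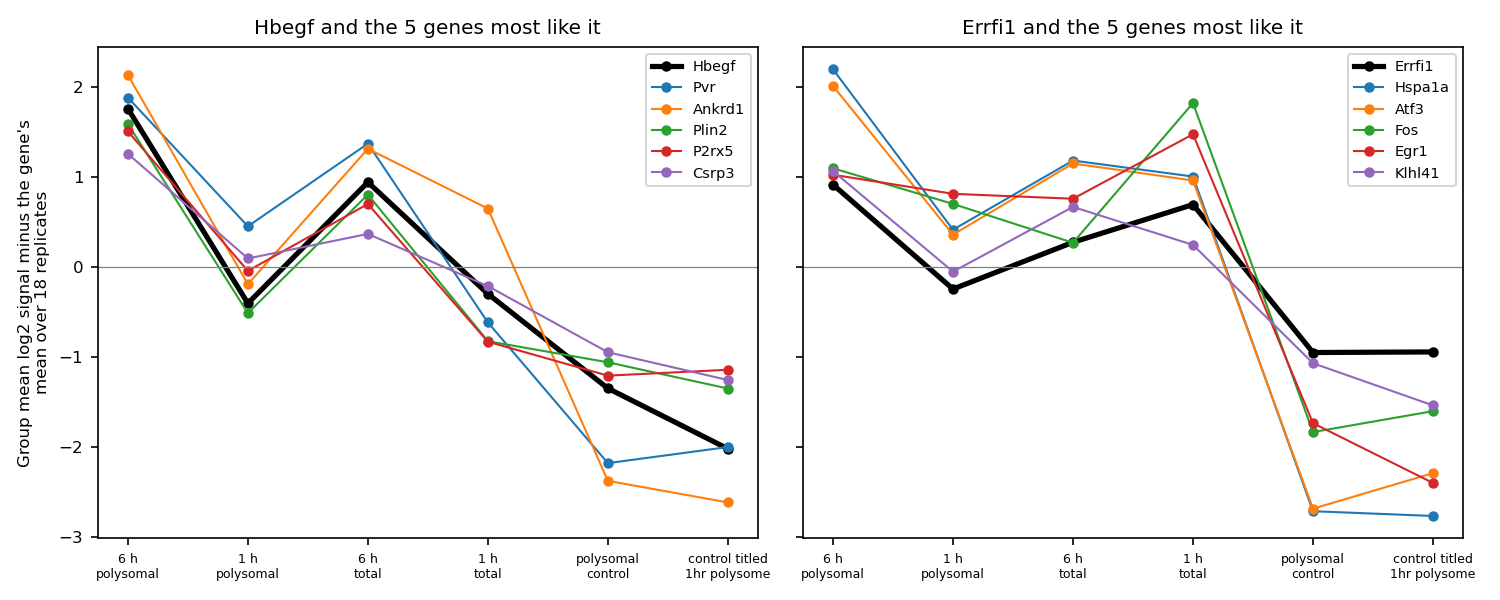
Group mean log2 signal of each gene minus its own mean over the 18 replicates, for Hbegf (left) and Errfi1 (right) in black with the 5 genes most like each; lines only join points of 1 gene. Fos and Egr1 peak in 1 h total RNA. Errfi1, Hspa1a, Atf3 and Klhl41, and Hbegf and its 5 nearest genes, peak in 6 h polysomal RNA, whose arrays entered the choice of the 2 genes.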

How the data were processed

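The values were signal intensities that the authors deposited in 1 table of 36 arrays, already scaled so that the 2% trimmed mean of each array lay between 801.0 and 801.9. Software, background correction and summary method are not given in the sources used here, and array medians ran from 148 to 266. Without the 59 control probe sets there were 8740. Signals were raised to a floor of 129.5 where lower and put on the log2 scale, and the 2 arrays of a number were averaged. A probe set was kept where 4 or more arrays exceeded the floor, and these 6707 were fitted with limma 3.58.1 in R 4.3.3, with 6 groups in 1 model (12 residual degrees of freedom), two-sided, adjusted by Benjamini-Hochberg over all of them, threshold 0.05. Gene symbols came from the platform annotation, and a gene was represented by its brightest probe set (3903 genes).

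The members, lists, tests and alternatives were chosen with earlier results of these data known. Named were all probe sets of both genes, each called gene of a list or, with none called, up to 2 members with the smallest p, and the 5 genes with the highest Pearson correlation over 18 replicates. A few others were named by level. The labels do not say that numbers come from separate animals, so the p-values reflect the spread between these samples alone, and that spread may be technical. The number of arrays limits the precision. The steps were tested on simulated data over 6707 probe sets. Each had normal noise of its residual spread around its mean over the 18 replicates, and no floor was applied. In 6 h total RNA against the 1hr control, a log2 change of 2 was called for 80% of changed probe sets and a change of 1 for 50%. In the same comparison 15 unchanged probe sets were called.

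Of the cell type markers, no gene was called in any of the 5 tested comparisons, against 0% to 0.403% of all probe sets. In 6 h total RNA against the 1hr control the median log2 change was -0.44 for skeletal muscle (10 tested genes), 0.41 for macrophage (9), 0.02 for neutrophil (3), 0.08 for endothelial (4), -0.21 for smooth muscle (5), -0.35 for keratinocyte (2) and 0.95 for fibroblast markers (7).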

Additional observations from a re-analysis of the deposited data

Results flagged for a closer look

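In 3 of 15 groups of 4 numbers (5 probe sets, 3 such groups) 1 number stood far from the others, by Dixon's criterion at the 95% level. All were in the polysomal control, where Hbegf L05489_at had a signal of 332.5 in number 4, Hbegf rc_AI059540_at 146.5 in number 1 and Errfi1 X07266cds_s_at 132.7 in number 2 (geometric means of 2 arrays after the floor). Chance flags about 1 in 20 groups where the values do not rest on the floor. The polysomal control entered the choice of the genes, so these flags are description only. For rc_AI059540_at and X07266cds_s_at the other 3 numbers lay on the floor, so any number above it stands apart from them.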

How the results depend on the processing

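The log2 change of Hbegf in 6 h total RNA against the 1hr control kept its direction under all 16 alternatives that keep this control and was called in 11. It was not called with no filter on low values (2.97, adjusted p 0.0795) or with only the 2 groups compared in the fit (2.97, adjusted p 0.448), and leaving out 1 replicate at a time gave 2.57 to 3.45. Errfi1 (rc_AI169756_s_at) was called in 1 h total RNA with the 36 arrays in a random block (1.64, adjusted p 0.0205) and in 6 h total RNA with the random block (1.22, adjusted p 0.0361) and, chosen after seeing the data, without numbers 3 and 4 of the 6 h total group (1.33, adjusted p 0.0393). The small difference of Hbegf between 1 h polysomal and 1 h total RNA turned positive with quantile normalization (0.057) and 75th percentile scaling (0.052), and ran from -1.08 to 0.87 when 1 replicate was left out. For X07266cds_s_at in 1 h polysomal RNA against the 1hr control the log2 change was -0.21 to 0.010 leaving out 1 replicate, positive without number 2 of that control. Against the polysomal control, whose arrays entered the choice of genes, values carry no test: Hbegf had 2.29 in 6 h total, 1.05 in 1 h total and 0.95 in 1 h polysomal RNA, Errfi1 1.23, 1.65 and 0.71 in that order, and X07266cds_s_at 0.0017 in 1 h polysomal RNA. With the replicate block, X07266cds_s_at in 1 h polysomal against 1 h total RNA was called (-2.91, adjusted p 0.0421), as it was with the random block (adjusted p 0.00112) and only the 2 groups (adjusted p 0.0468). The tested groups share 2 numbers, too few to show that the numbers pair the samples (deviation correlations of -0.22 to 0.20; in comparisons not tested here, 0.431 to 0.538 over the 4 numbers of 6 h polysomal RNA and the polysomal control, and 0.0726 to 0.248 over those of 6 h polysomal and 6 h total RNA), and the block moved the counts below. Over all probe sets the count called in 1 h total RNA against the 1hr control was 5, and 3 with a floor at the 20th percentile, 10 with no filter, 28 with the replicate block, 113 with the random block, 0 with only the 2 groups, 564 with the polysomal control and 0 to 19 leaving out 1 replicate. In 6 h total RNA against that control it was 27, and 140, 195, 0 and 937 with the replicate block, the random block, the 2 groups and the polysomal control, 81 without the array at 39.99, 777 without numbers 3 and 4, and 0 to 101 leaving out 1 replicate. In 1 h polysomal against 1 h total RNA it was 26, and 10 with a floor at the 20th percentile and with no floor, 206 with the replicate block, 364 with the random block, 45 with the 2 groups, and 1 to 85 leaving out 1 replicate. In 6 h against 1 h total RNA it was 4, and 1 with either other floor, 11 with no filter, 0 with the replicate block, 20 with the random block, 0 with the 2 groups, 7 without the array at 39.99, 25 without numbers 3 and 4, and 1 to 15 leaving out 1 replicate. In 1 h polysomal RNA against the 1hr control it was 0, and 4 with the random block and 0 to 46 leaving out 1 replicate. The cause of these shifts was not tested. The random block assumes a common correlation between the arrays of a number for all probe sets, so its p can be too small for some of them. Signals under the floor have no order, which limits X07266cds_s_at, rc_AI059540_at, M23572_at and, in the 1hr control, L05489_at, and 2 replicates in the 1hr control limit every comparison with it.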
